A study of Mus musculus with 23 samples.

Results

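The keratins were followed through fetal, adult and tumour-bearing mouse lung. They were taken as all genes of the deposited tables whose symbol is Krt followed only by digits, which gave 48 of the 24411 genes listed, 26 of type I and 22 of type II. Another 4 keratin genes, whose symbols end in a letter (Krt6a, Krt6b, Krt33a and Krt33b), fall outside that pattern and are mentioned only where a value bears on a member. Levels are given in FPKM (fragments per kilobase of gene, scaled to the size of the library), which can be set side by side between genes, and tests were run on the counts.

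RNA sequencing of total RNA from whole lung gave 23 libraries in 7 groups, all from mice of C57BL/6 background that were housed behind a pathogen-free barrier and received no treatment. Wild-type (WT) and Rarres1 knockout (Rarres1-KO, here KO) lungs were sampled at embryonic day 19.5 (E19.5), with 3 libraries of each genotype, and at 10 months after birth, again with 3 of each. At 18 months there were 3 WT libraries, 5 of non-tumour lung from KO mice and 3 of lung tumours from KO mice. All postnatal mice were male, and the labels give no sex for the embryos and do not say how the knockout was made or whether it is confined to a cell type. The tumours have no WT counterpart, so in the comparison with WT lung the tumour and the genotype cannot be told apart. The 3 tumours share the code numbers 1, 3 and 6 with 3 of the non-tumour KO libraries. A shared code was read as the same animal. The labels do not say so outright, and the title of non-tumour library 6 carries another number.

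Keratins are the intermediate filament proteins of epithelial cells. A filament is built from pairs of 1 type I and 1 type II chain, and each epithelium has its own set: Krt8 with Krt18, joined by Krt7 and Krt19, in simple epithelia such as the alveolar and airway lining, Krt5 with Krt14 in basal cells, Krt4 with Krt13 in moist stratified linings such as the oesophagus, and a further set in hair. Pathologists use the set found in a tumour as a sign of the epithelium it came from.

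Each library held 23.7 to 46.6 M counts, and keratins took 0.0909% to 0.223% of them. Rarres1 itself had 24 to 64 counts in each WT library and 0 or 1 in each KO or tumour library. Markers of alveolar type 2 cells, which define distal lung, summed to at least 21740 FPKM in every library. The library WT E19.5 3 stood apart from the other 5 fetal libraries: its summed FPKM was 123.7 for 8 markers of oesophageal squamous epithelium, against 29.5 to 34.4, and 227.1 for 7 skeletal muscle markers, against 38.4 to 100.1. Results for the keratins that were highest in it are given with and without it.

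The type I genes lay in 1 cluster of 25 genes on chromosome 11 (99232761 to 100269951, GRCm38), apart from Krt18, which lay on chromosome 15 beside the type II cluster (102028216 to 102032026). The 21 type II genes with coordinates lay on chromosome 15 between 101348315 and 102004342, and Krt85 had no match in the annotation. Of the 48 genes, 8 had no count in any library, a further 24 stayed under 1 FPKM in every library, and 12 had a count in every library. In all, 15 reached a mean of 1 FPKM in at least 1 group and are described by name: Krt4, Krt5, Krt7, Krt8, Krt10, Krt13, Krt14, Krt15, Krt17, Krt18, Krt19, Krt23, Krt79, Krt80 and Krt83. Krt78 fell just short, with 1.14 FPKM in WT E19.5 3 and no more than 0.14 FPKM elsewhere. Means of at least 10 FPKM in all 7 groups were held by 5 keratins, Krt7, Krt8, Krt18, Krt19 and Krt80.

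Promoter sequences are shown for 4 genes on which the results turn. The partners Krt8 and Krt18 had a lower ratio in every tumour than in every other library. Krt23 and Krt79 moved in opposite directions in tumours. Each run is RefSeq sequence of GRCm38.p6, 5′ to 3′ in the gene's direction, from 250 bases before the annotated start to 50 after it, and capitals mark matches to the searched motifs. Krt8 lies at chr15:102004293-102004592 on the minus strand, Krt18 at chr15:102027966-102028265 on the plus strand, Krt23 at chr11:99493071-99493370 on the minus strand and Krt79 at chr15:101940275-101940574 on the minus strand.
Krt8: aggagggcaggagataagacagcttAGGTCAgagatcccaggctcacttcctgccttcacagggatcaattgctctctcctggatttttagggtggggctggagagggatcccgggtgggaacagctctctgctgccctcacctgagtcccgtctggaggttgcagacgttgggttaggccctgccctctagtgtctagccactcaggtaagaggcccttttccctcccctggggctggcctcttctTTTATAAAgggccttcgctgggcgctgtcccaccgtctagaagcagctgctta
Krt18: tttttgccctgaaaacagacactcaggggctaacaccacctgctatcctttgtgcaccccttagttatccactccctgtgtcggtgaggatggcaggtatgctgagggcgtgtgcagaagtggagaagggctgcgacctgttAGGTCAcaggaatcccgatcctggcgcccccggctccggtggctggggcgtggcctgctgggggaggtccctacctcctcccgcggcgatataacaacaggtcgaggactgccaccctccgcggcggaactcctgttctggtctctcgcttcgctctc
Krt23: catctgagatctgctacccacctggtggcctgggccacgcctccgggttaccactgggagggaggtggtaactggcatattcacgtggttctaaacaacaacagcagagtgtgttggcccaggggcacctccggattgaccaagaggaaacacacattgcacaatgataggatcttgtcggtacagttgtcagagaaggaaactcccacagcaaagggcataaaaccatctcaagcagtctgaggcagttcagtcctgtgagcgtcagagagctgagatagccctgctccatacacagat
Krt79: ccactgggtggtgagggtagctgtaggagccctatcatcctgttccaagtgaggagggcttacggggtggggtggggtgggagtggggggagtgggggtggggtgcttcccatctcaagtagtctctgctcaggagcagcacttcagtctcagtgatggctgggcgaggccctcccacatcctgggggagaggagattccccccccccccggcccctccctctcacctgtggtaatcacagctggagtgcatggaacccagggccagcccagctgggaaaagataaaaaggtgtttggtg
The motifs were searched on both strands, so that TATAAA and its reverse complement can overlap. Keratins were counted by gene, with a match in any promoter of the gene, and the background by promoter, so the shares differ in unit. TATAAA was found in 18 of the 34 keratins that could be matched (52.9%) and in 13.6% of 32851 promoters of the same length. AGGTCA, the core of nuclear receptor sites, was found in 10 keratin promoters (29.4%), among them Krt8 and Krt18, against 16.3% of all. GGGCGG was found in 2 (Krt7 and Krt75, 5.9%) against 35.7%, and TGANTCA in 1 (Krt13, 2.9%) against 7.8%. The Krt8 promoter held TATAAA as well as AGGTCA, and those of Krt23 and Krt79 held none of the 4 motifs in this window.

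The simple epithelial keratins made up most of the keratin RNA at every age. Krt7, Krt8, Krt18 and Krt19 together supplied 92.3% to 93.5% of the summed keratin FPKM in 5 of the 6 fetal libraries, 80.9% to 87.8% in the 14 adult non-tumour libraries and 87.1% to 91.9% in the 3 tumours. In WT E19.5 3 their share was 55.6%, because Krt4, Krt5, Krt13, Krt14, Krt15 and Krt17 took 41.7%. Krt19, a short type I keratin, was the most abundant keratin in 6 of 6 fetal libraries, and Krt7, its usual type II companion in ductal and glandular epithelia, in all 14 adult and 3 tumour libraries.

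In WT fetal lung the order by mean FPKM among these 4 was Krt19 at 261.5 ± 25.5 (SD, n = 3), Krt8 at 200.7 ± 0.919, Krt7 at 200.5 ± 23.8 and Krt18 at 160.8 ± 2.46, and Krt8 and Krt7 differed by less than their spread. In WT lung at 10 months it was Krt7 at 266.9 ± 14.4 (SD, n = 3), Krt8 at 158.2 ± 10.98, Krt19 at 146.1 ± 12.2 and Krt18 at 100.3 ± 2.10, with Krt8 and Krt19 within their spread of each other. Krt80, a type II keratin found near desmosomes in differentiating epithelia, came next in adult WT lung with 96.4 ± 6.56 FPKM, followed by Krt23 with 16.2 ± 1.78 and Krt79 with 11.9 ± 3.57. In fetal lung Krt15 stood above both Krt80 and Krt23 in the WT and KO group medians.

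**Figure D1:**
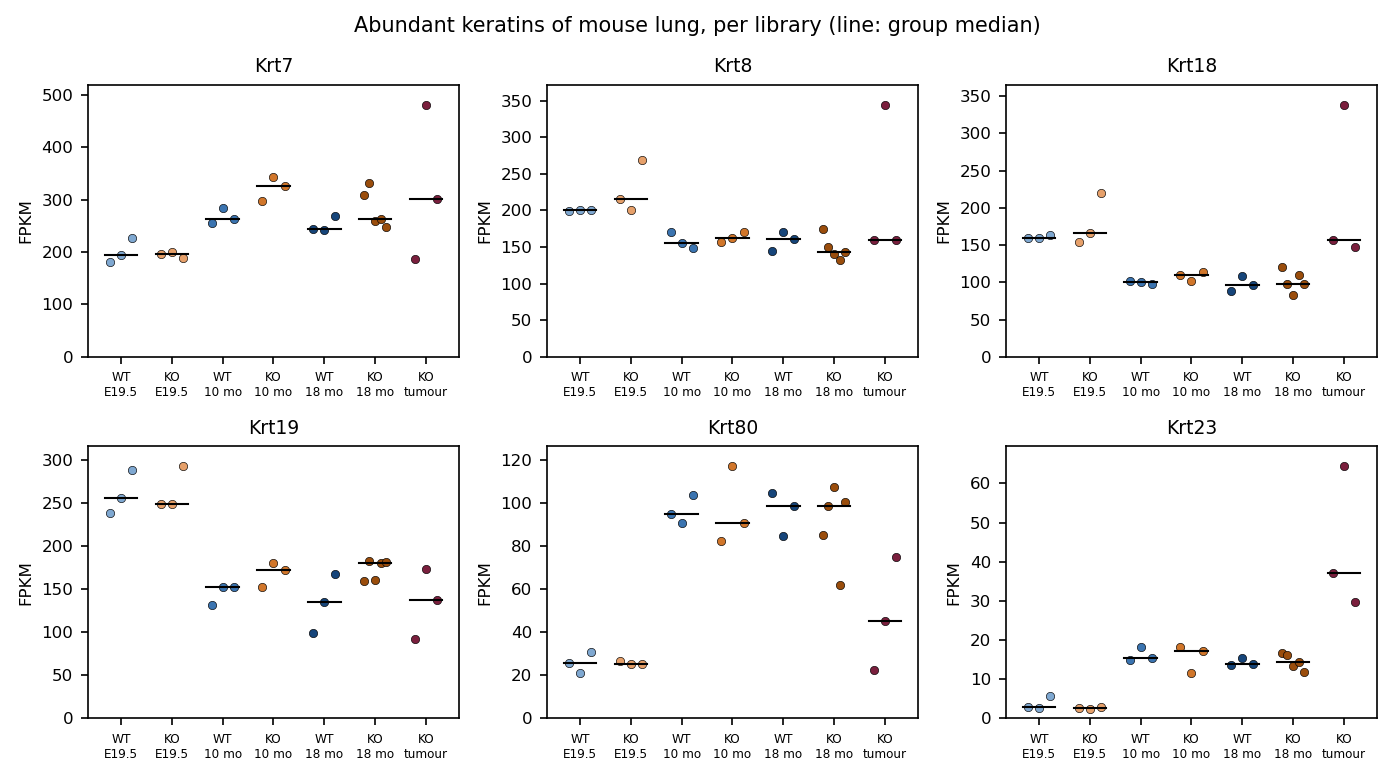
FPKM (vertical axis, linear, from 0) of Krt7, Krt8, Krt18, Krt19, Krt80 and Krt23 in each of the 23 libraries (points), by group (horizontal axis), with the group median as a line. Krt19 is highest in the fetal libraries, Krt80 steps up from 21.2 to 30.9 FPKM in fetal lung to 62.0 to 116.9 in adult non-tumour lung, and Krt23 is highest in the 3 tumours (29.6 to 64.4 FPKM).

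From late fetal to adult lung the type I simple keratins Krt18 and Krt19 fell, Krt8 fell slightly, Krt7 rose, and Krt79, Krt23 and Krt80 rose several-fold, in WT and KO lung alike. In WT lung 17 of the 48 members had counts enough to be tested, of which 5 were higher and 4 lower at 10 months than at E19.5 with edgeR's quasi-likelihood test and a Benjamini-Hochberg adjusted p under 0.05. This comparison called 62.7% of all genes (31.5% higher, 31.2% lower), so 9 of 17 keratins is near the background. In KO lung 16 were tested, with 5 higher and 7 lower, against 60.5% of all genes (31.1% higher, 29.4% lower). The median log2 fold change of the tested members was -0.53 in WT and -0.46 in KO lung, against 0.00 for all genes in both. The groups did not overlap for 13 members in each genotype, where 69.4% (WT) and 69.0% (KO) of genes showed this.

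Krt79 showed the steepest rise. This type II keratin, known from the duct-like upper part of the hair follicle, was at 0.35, 0.25 and 0.27 FPKM in the WT embryos and 0.42, 0.15 and 0.19 in the KO embryos. At 10 months it was at 8.48, 15.59 and 11.57 FPKM in WT and 12.55, 12.26 and 12.79 in KO lung. All 6 adult libraries lay above all 6 fetal ones, by a log2 fold change of 5.40 ± 0.30 (SE) in WT (adjusted p = 3.15e-06) and 5.64 ± 0.26 in KO lung (adjusted p = 1.26e-06).

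Krt80 was at 25.65, 21.16 and 30.87 FPKM in the WT embryos and 26.81, 24.98 and 25.29 in the KO embryos. It was at 94.85, 90.68 and 103.54 FPKM in WT and 82.29, 116.93 and 90.54 in KO lung at 10 months. The log2 fold change was 1.95 ± 0.14 in WT (adjusted p = 8.63e-06) and 1.96 ± 0.13 in KO lung (adjusted p = 9.51e-06), with no overlap between the ages. Krt23, a type I keratin, was at 2.83, 2.76 and 5.70 FPKM in the WT and 2.71, 2.29 and 2.77 in the KO embryos. At 10 months Krt23 was at 14.80, 18.16 and 15.48 FPKM in WT and 18.12, 11.63 and 17.28 in KO lung. Its log2 fold change was 2.17 ± 0.30 in WT (adjusted p = 0.000838) and 2.65 ± 0.19 in KO lung (adjusted p = 8.86e-06). Of the 6 fetal libraries, WT E19.5 3 was the highest for Krt23.

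Krt7 was at 180.97, 193.45 and 227.03 FPKM in the WT embryos and 196.33, 200.66 and 189.15 in the KO embryos. At 10 months Krt7 was at 255.71, 283.11 and 262.03 FPKM in WT and 297.40, 342.27 and 325.42 in KO lung. All adult libraries were higher than all fetal ones. The log2 fold change was 0.47 ± 0.09 in WT (adjusted p = 0.00165) and 0.77 ± 0.08 in KO lung (adjusted p = 7.65e-05), and the difference between the genotypes, tested as an interaction, was 0.30 ± 0.12 with an unadjusted p of 0.0339 and an adjusted p of 0.614.

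Krt19 went the other way, from 239.13, 256.08 and 289.24 FPKM in WT and 248.87, 249.73 and 293.23 in KO embryos to 131.99, 153.01 and 153.17 in WT and 152.31, 180.44 and 172.85 in KO lung at 10 months. It fell by 0.78 ± 0.09 on the log2 scale in WT (adjusted p = 7.03e-05) and fell by 0.60 ± 0.11 in KO lung (adjusted p = 0.00142). Krt18 was at 159.27, 159.57 and 163.67 FPKM in the WT embryos and 102.44, 100.07 and 98.26 in WT lung at 10 months, and it fell by 0.62 ± 0.06 on the log2 scale (adjusted p = 1.44e-05). In KO lung Krt18 went from 154.63, 165.82 and 220.08 FPKM to 110.24, 101.24 and 114.19 and fell by 0.68 ± 0.14 (adjusted p = 0.00374). Its partner Krt8 fell less, by 0.29 ± 0.07 on the log2 scale in WT (adjusted p = 0.00425) and by 0.44 ± 0.12 in KO lung (adjusted p = 0.0135). For Krt8 the FPKM values were 199.63, 201.30 and 201.13 in WT and 216.33, 200.72 and 269.64 in KO embryos, and 170.12, 156.08 and 148.48 in WT and 157.43, 161.91 and 170.34 in KO lung at 10 months. In all 3 genes the fetal libraries lay above the adult ones without overlap.

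Krt18 and Krt19 of type I fell and Krt7, Krt79 and Krt80 of type II rose, while Krt23 of type I rose and Krt8 of type II fell. The summed FPKM of type II over that of type I was 0.794 to 1.01 in the 6 fetal libraries. It was 1.54 to 2.503 in the 14 adult non-tumour libraries, and the medians were 0.937 and 1.96. The lowest fetal ratio was that of WT E19.5 3, and the next was 0.857 in KO E19.5 3. The ratio of Krt7 to Krt19 was 0.645 to 0.804 in fetal and 1.37 to 2.46 in adult lung. The ratio of Krt8 to Krt18 was 1.21 to 1.40 in fetal and 1.21 to 1.69 in adult lung, so that these ranges overlapped. The sum of all keratins was 833 to 1053 FPKM in 5 fetal libraries, 1583 in WT E19.5 3, and 712 to 931 in adult lung. The ratios are of RNA, and protein was not measured.

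**Figure D2:**
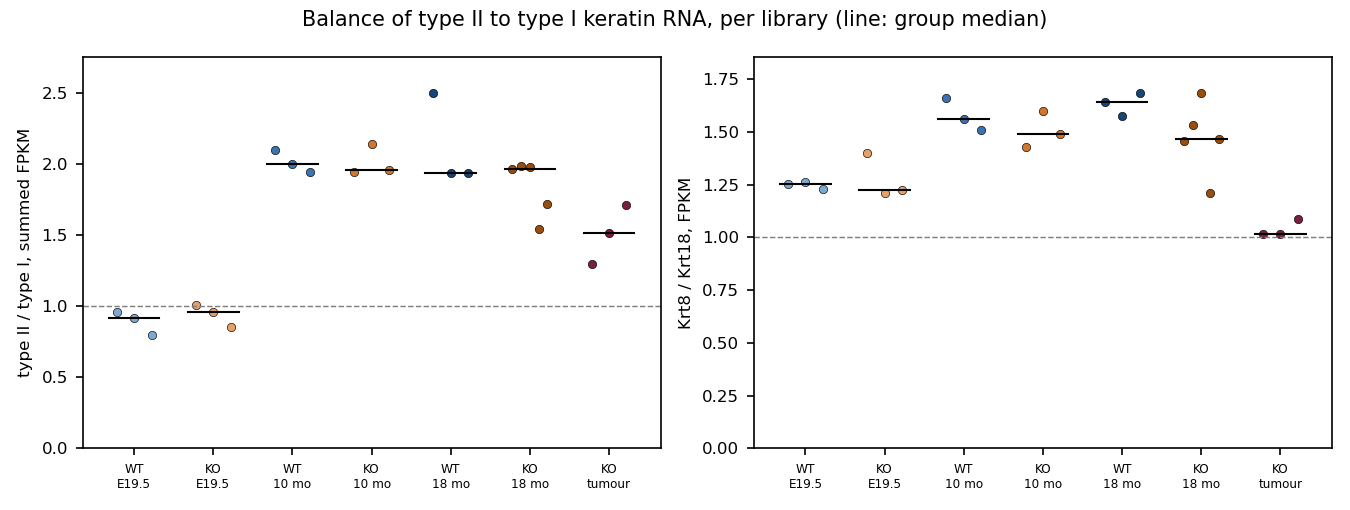
Left, summed FPKM of type II keratins divided by that of type I keratins; right, FPKM of Krt8 divided by that of Krt18, for each library (points) by group, with the group median as a line and a dashed line at equal levels. On the left the fetal libraries lie between 0.794 (WT E19.5 3) and 1.01 and the adult non-tumour libraries between 1.54 and 2.503. On the right the 3 tumours (1.02 to 1.09) lie below all other libraries.

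Krt15, a type I keratin of basal cells, was high in every fetal library and close to absent from adult lung. It was at 19.90, 33.36 and 171.73 FPKM in the WT embryos and 26.80, 24.72 and 45.40 in the KO embryos. At 10 months Krt15 was at 1.16, 0.13 and 1.60 FPKM in WT and 0.19, 0.74 and 0.14 in KO lung, and at 18 months no library exceeded 0.14 FPKM. The highest library at 10 months lay well below the lowest fetal one, and the third WT embryo was far above the other embryos. Krt15 fell by 6.24 ± 1.44 on the log2 scale in WT (adjusted p = 0.0201) and changed by -6.50 ± 0.57 in KO lung (adjusted p = 0.000216). In WT lung the call rested on all 3 adult libraries, since leaving out any one of them gave an adjusted p of 0.0635 to 0.0727. Without the third WT embryo the change was -4.73 ± 0.84 (adjusted p = 0.0167).

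The other keratins of basal and stratified cells were low in 5 of 6 embryos. Krt5, the type II keratin of basal cells, was at 0.48, 0.97 and 34.67 FPKM in the WT embryos and 1.12, 0.42 and 0.55 in the KO embryos. Its partner Krt14 was at 0.51, 0.94 and 6.18 FPKM in WT and 0.50, 0.59 and 1.35 in KO embryos, and Krt17, a keratin of skin appendages and of injured epithelium, at 0.38, 0.87 and 8.05 FPKM in the WT embryos and 0.93, 0.39 and 0.68 in the KO embryos. In each of the 3 the third WT embryo was the highest.

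In adult lung Krt5 was between 0 and 0.30 FPKM in every non-tumour library and Krt17 between 0 and 0.16. Krt17 fell by 4.45 ± 0.81 on the log2 scale from fetal to adult KO lung (adjusted p = 0.00157); its 70 pooled fetal against 3 adult reads gave a ratio of 25.9 with an exact 95% interval of 8.49 to 128, which covers counting error only. In WT lung Krt17 changed by -5.74 (adjusted p = 0.0568), Krt14 by -4.01 (adjusted p = 0.0544) and Krt5 by -6.37 (adjusted p = 0.0989) on the log2 scale, none of them past the threshold. Krt14 and Krt17 passed it when the first or the third WT embryo was left out. Without the third, Krt17 changed by -3.42 ± 0.95 (adjusted p = 0.015), Krt14 by -2.19 ± 0.66 (adjusted p = 0.0183) and Krt5 by -2.30 ± 0.90 (adjusted p = 0.0701).

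Krt4 and Krt13, the pair of the suprabasal oesophagus, were at 205.17 and 234.91 FPKM in WT E19.5 3, more than Krt8 in the same library. In the other 5 embryos Krt4 was at 0.38 to 0.85 FPKM and Krt13 at 0.16 to 0.70. Krt6a, outside the symbol pattern, was at 42.87 FPKM (2097 counts) in that library. The third WT library at 10 months was likewise the highest adult library for Krt4, with 0.98 FPKM, and for Krt13, with 1.16. Krt4 fell by 2.57 ± 0.55 on the log2 scale in KO lung (adjusted p = 0.00363), and in WT lung it changed by -7.31 (adjusted p = 0.13). Krt13 changed by -7.36 in WT lung (adjusted p = 0.137). Without the third WT embryo these values were -0.16 ± 0.91 for Krt4 and 0.18 ± 1.27 for Krt13. Without the third WT library at both ages, an alternative chosen after the values were seen, Krt4 also passed in WT lung. The cornified envelope genes were also higher in WT E19.5 3, with a summed 165.4 FPKM against 48.6 to 58.6 in the other embryos. The part of a neighbouring tissue in these values was not tested.

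**Figure D3:**
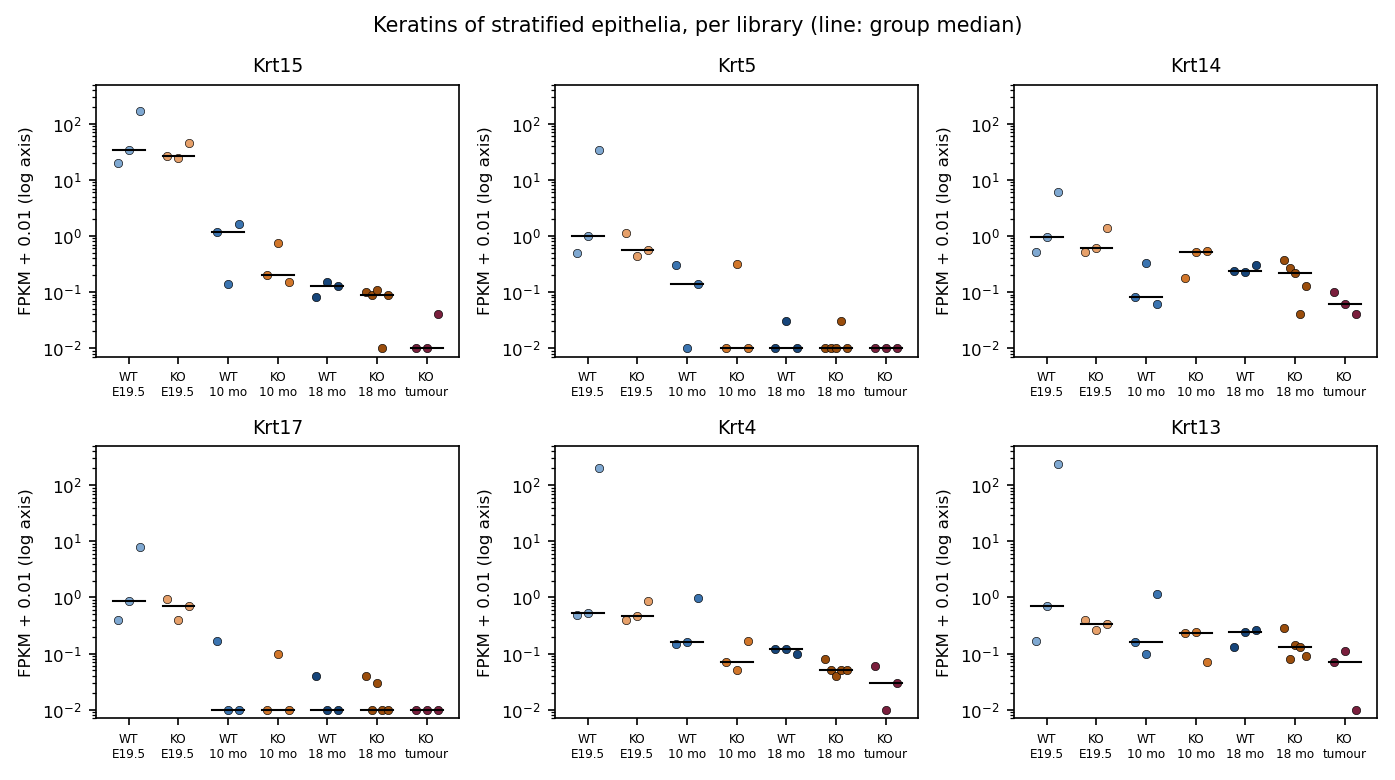
FPKM + 0.01 on a logarithmic axis for Krt15, Krt5, Krt14, Krt17, Krt4 and Krt13 in each library (points), by group, with the group median as a line. The third WT E19.5 library is the highest point in all 6 panels, and Krt15 alone is above 19 FPKM in all fetal libraries.

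Krt10, the type I keratin of the upper epidermis, was low but present in all 23 libraries. It was at 2.00, 1.89 and 1.58 FPKM in WT and 1.97, 2.06 and 1.68 in KO embryos, and at 1.28 to 1.38 FPKM in the 6 libraries at 10 months. Krt10 fell by 0.47 ± 0.17 on the log2 scale in KO lung (adjusted p = 0.0429), and in WT lung its adjusted p was 0.11. The KO call was lost when any library but the third KO embryo was left out. Krt1, its partner in skin, was between 0.07 and 0.48 FPKM in all libraries.

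Krt83, a hair shaft keratin of type II, was at 0.07, 0.27 and 0.08 FPKM in WT and 0.20, 0.22 and 0.08 in KO embryos. At 10 months Krt83 was at 0.63, 0.32 and 0.35 FPKM in WT and 0.28, 0.32 and 0.47 in KO lung. It rose by 1.72 ± 0.55 on the log2 scale in WT (adjusted p = 0.0205) and by 1.16 ± 0.44 in KO lung (adjusted p = 0.0489). The WT call was lost without WT embryo 1 or 3 or WT 10 months 1, and the KO call under all 13 alternatives tried.

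Some keratins too low for the test were higher in fetal than in adult non-tumour lung. Krt31, a type I hair keratin, had 51 of its 53 counts in fetal libraries. Pooled over libraries it was at least 7.52-fold higher at E19.5 than at 10 months in WT and at least 11.5-fold higher in KO lung, against a floor of 3 counts in the adult group. Krt75, a companion-layer keratin of the hair follicle, had all of its 16 counts in fetal libraries, a fold of at least 3.76 in WT and at least 2.22 in KO lung. Krt20, a keratin of gut and urothelium, was 5.45-fold higher (exact 95% interval 2.23 to 16.1) in WT and 4.21-fold higher (1.52 to 14.4) in KO fetal lung than at 10 months. The tumours held 28 counts of Krt20, spread unevenly from 3 to 22 per tumour, against 48 in fetal and 19 in the other adult libraries. These 3 keratins were picked after their counts were seen.

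The genes that hold keratin filaments in place moved in both directions as the lung matured. Between E19.5 and 10 months 62.7% of all genes were called in WT and 60.5% in KO lung. Of 6 desmosomal genes tested, 3 were higher and 1 was lower at 10 months in WT lung. In KO lung 2 were higher and 1 was lower. The desmosome links keratin filaments between cells: plakophilin Pkp2 rose by 0.74 ± 0.08 on the log2 scale in WT and by 0.66 ± 0.14 in KO lung, and desmoplakin (Dsp), which binds the filament, fell by 0.43 ± 0.15 and by 0.54 ± 0.11. Of 11 linkers and hemidesmosome genes 2 were higher and 6 lower in each genotype, among them the tetraspanin Cd151 (1.04 ± 0.07 in WT and 1.17 ± 0.08 in KO lung) and envoplakin, Evpl (-1.68 ± 0.27 and -1.34 ± 0.09).

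The next lists stand against the same 62.7% (WT) and 60.5% (KO) of all genes called. Of the other intermediate filament genes 1 of 12 tested was higher and 5 lower in WT lung. In KO lung 3 of 11 were higher and 6 lower. They included vimentin (Vim), the filament of mesenchymal cells, which fell by 0.74 ± 0.08 in WT and by 0.54 ± 0.13 in KO lung on the log2 scale. Among regulators of stratified epithelium 2 of 10 were higher and 3 lower in WT, and 3 of 9 higher and 1 lower in KO lung, with Klf5 changed by -1.33 ± 0.08 and -1.23 ± 0.11. Medians of these 4 lists lay between -0.49 and 0.16 on the log2 scale, against 0.00 for all genes. Of the cornified envelope genes, 1 of 7 was higher and 3 lower in WT lung and 3 of 6 higher and 3 lower in KO lung, with list medians of -1.46 and -0.58, and the cross-linking enzyme Tgm1 fell by 2.98 ± 0.17 and by 2.73 ± 0.11.

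Cell type markers also differed between E19.5 and 10 months, where 62.7% (WT) and 60.5% (KO) of all genes were called. Of 10 general epithelial markers 1 was higher and 8 lower at 10 months in WT lung, and 1 higher and 7 lower in KO lung; their summed FPKM was 555.6 to 655.8 in fetal libraries and 351.2 to 419.9 at 10 months. Of 6 basal cell markers 5 were lower in WT and 4 in KO lung, and summed to 388.8 to 441.0 FPKM in fetal and 294.8 to 374.0 at 10 months. Ciliated cell markers were higher for 8 of 8 in WT and 5 of 8 in KO lung. Alveolar type 1 markers were higher for 6 of 8 in each, with 1 lower in KO lung. Club cell markers were higher for 3 of 6 in each, with 1 lower in KO lung. Among 8 alveolar type 2 markers 1 was higher and 3 lower in WT, and 2 higher and 3 lower in KO lung. In whole tissue, fewer cells of a type and less RNA per cell cannot be told apart, and the part of cell composition in the keratin values was not tested.

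**Figure D4:**
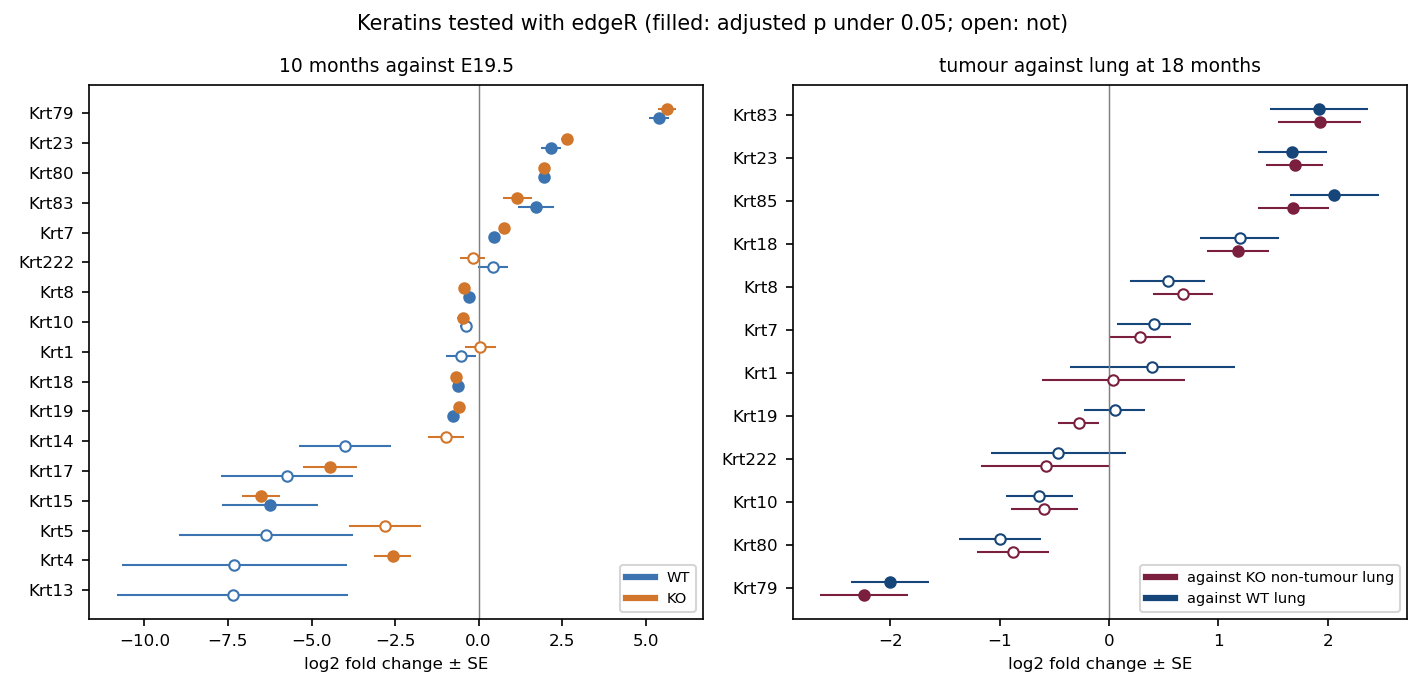
Log2 fold change (horizontal axis, bars ± SE) of the keratins tested, left for 10 months against E19.5 in WT (blue) and KO (orange) lung, right for tumours against KO non-tumour lung (red) and against WT lung (dark blue) at 18 months. Filled points have an adjusted p under 0.05 with edgeR. On the left Krt79 is highest (5.40 in WT and 5.64 in KO lung); on the right Krt23, Krt83 and Krt85 lie between 1.68 and 2.06 and Krt79 at -2.24 and -2.0.

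Loss of Rarres1 was not accompanied by a called change in any keratin at any age with edgeR. At E19.5, 0 of 16 tested members passed the threshold with edgeR and 0 had an unadjusted p under 0.05. None of the 15307 genes tested passed (0%), and 144 had an unadjusted p under 0.05; no member's groups were free of overlap, against 5.06% of genes. DESeq2 called no keratin either. The largest fitted differences were those of Krt13 (-7.91 ± 3.58), Krt4 (-6.93 ± 3.21) and Krt5 (-4.08 ± 2.07) on the log2 scale, each with an adjusted p of 1.00. They rested on the third WT embryo. Without it Krt13 differed by -0.39 ± 0.61, Krt4 by 0.20 ± 0.42, Krt5 by -0.02 ± 0.48 and Krt15 by 0.31 ± 0.36, where Krt15 had been at -1.19 ± 0.98. The simple keratins differed little, from -0.02 ± 0.09 for Krt7 to 0.21 ± 0.12 for Krt8, and the third KO embryo was the highest of the 6 for Krt8, Krt18 and Krt19.

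At 10 months, 0 of 13 tested members passed, where 1.52% of all genes did (0.574% higher, 0.946% lower). Only 2 members, Krt7 and Krt18, did not overlap between genotypes, against 24.7% of genes. The 3 WT libraries held 255.71 to 283.11 FPKM of Krt7 and the 3 KO libraries 297.40 to 342.27, higher by 0.27 ± 0.08 on the log2 scale with an unadjusted p of 0.00824 and an adjusted p of 0.136. DESeq2 called Krt7 here and no other keratin. Krt18 differed by 0.11 ± 0.06 (adjusted p = 0.364), Krt19 by 0.21 ± 0.09 (adjusted p = 0.288) and Krt8 by 0.04 ± 0.07 (adjusted p = 0.795).

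At 18 months, 0 of 12 tested members passed in KO non-tumour lung against WT lung, where 0.0776% of all genes did (0.0453% higher, 0.0323% lower), and the groups overlapped for all 12, against 6.89% of genes without overlap. Krt19 had the only unadjusted p under 0.05 (0.0447, adjusted p = 0.603). It was at 99.17, 134.78 and 167.41 FPKM in WT and 160.20, 183.30, 161.31, 180.90 and 181.60 in KO lung, a difference of 0.32 ± 0.14 on the log2 scale. The KO libraries lay close together between 160.20 and 183.30 FPKM, while the WT libraries spread more widely. Krt7 differed by 0.12 ± 0.13 and Krt8 by -0.15 ± 0.11, and DESeq2 called no keratin. Of the linker, desmosome, filament, regulator and cornified envelope lists, no gene was called between genotypes at any of the 3 ages with edgeR. An unadjusted p under 0.05 was found for 1 of 43 tested at E19.5, 11 of 42 at 10 months and 2 of 41 at 18 months. Over all genes it was found for 144 of 15307, 2670 of 15324 and 1242 of 15463, in the same order.

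Between 10 and 18 months no keratin passed the threshold in either genotype with edgeR, 0 of 11 tested in WT and 0 of 12 in KO lung, and 0 members had an unadjusted p under 0.05. No gene of all those tested was called in either comparison (0%), and 833 genes in WT and 782 in KO lung had an unadjusted p under 0.05. No member was free of overlap, against 10.6% of genes in WT and 3.62% in KO lung. Krt7 changed by -0.07 ± 0.07 in WT and -0.22 ± 0.13 in KO lung on the log2 scale, Krt8 by 0.02 ± 0.08 and -0.17 ± 0.11, Krt80 by 0.00 ± 0.09 and -0.13 ± 0.19. DESeq2 called 1 keratin, Krt15, in WT lung and none in KO lung. Krt15 was at 0.07, 0.14 and 0.12 FPKM in WT lung at 18 months and 1.16, 0.13 and 1.60 at 10 months, so that the groups overlapped.

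The genotype effect did not differ between 10 months and E19.5 past the threshold for any of 17 keratins tested by an interaction term in edgeR, where 0.156% of genes passed (0.0625% higher, 0.0938% lower). One keratin, Krt7, had an unadjusted p under 0.05.

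Lung tumours of KO mice had more Krt18, Krt23, Krt83 and Krt85 RNA and less Krt79 RNA than non-tumour lung of KO mice of the same age. Of 12 keratins tested, 4 were higher and 1 was lower with edgeR, where 13.8% of all genes were called (7.20% higher, 6.61% lower). The same 5 had groups that did not overlap, against 21.0% of genes. The median log2 fold change was 0.16 for the members and -0.01 for all genes. Next, only the 3 code numbers found in both tissues were used, and the number was a term of the fit (the replicate block). With that term 0 keratins and 135 genes in all were called. Krt23 was at 1.56 (adjusted p = 0.0676), Krt79 at -2.20 (adjusted p = 0.0811) and Krt85 at 1.63 (adjusted p = 0.105) on the log2 scale. Krt83 was at 1.65 (adjusted p = 0.113) and Krt18 at 0.99 (adjusted p = 0.211). The same 6 libraries without that term gave 1 call, Krt23.

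Krt23 was at 37.21, 64.39 and 29.62 FPKM in tumours 1, 3 and 6. In KO non-tumour lung it was at 16.62, 16.17, 13.40, 14.27 and 11.91 FPKM, and in WT lung at 13.64, 15.35 and 13.81. Every tumour was above every one of the other 20 libraries. The log2 fold change was 1.70 ± 0.26 against KO non-tumour lung (adjusted p = 0.0045) and 1.68 ± 0.32 against WT lung (adjusted p = 0.0214).

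Krt79 was at 1.74, 2.77 and 3.62 FPKM in the tumours. In KO non-tumour lung it was at 19.95, 14.63, 6.09, 16.09 and 10.48 FPKM, and in WT lung at 14.50, 6.97 and 11.78. All tumours lay below all adult lung libraries and above all fetal ones. Krt79 fell by 2.24 ± 0.40 on the log2 scale against KO non-tumour lung (adjusted p = 0.0083) and by 2.0 ± 0.35 against WT lung (adjusted p = 0.0182).

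Krt18 was at 156.15, 338.47 and 146.81 FPKM in the tumours and at 119.92, 97.82, 83.22, 109.62 and 97.16 in KO non-tumour lung. All tumours were higher, and tumour 3 was far above tumours 1 and 6. The log2 fold change was 1.18 ± 0.28 (adjusted p = 0.0262), and the call was lost when non-tumour library 2, 3 or 7 was left out (adjusted p = 0.063, 0.064 and 0.0605). Against WT lung Krt18 was higher by 1.20 ± 0.36 (adjusted p = 0.0713). Its partner Krt8 was at 158.98, 344.59 and 159.41 FPKM in the tumours and 174.86, 149.93, 140.20, 132.98 and 142.71 in KO non-tumour lung, so that these groups overlapped. Krt8 differed by 0.68 ± 0.27 on the log2 scale (adjusted p = 0.132).

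The ratio of Krt8 to Krt18 in FPKM was 1.02, 1.02 and 1.09 in the 3 tumours, near equal levels, and 1.21 to 1.69 in the 20 other libraries. Tumour 3 had about the same ratio as tumour 1 although both genes were more than 2-fold higher in it. The ratio of type II to type I keratins was 1.297, 1.52 and 1.71 in the tumours, of which tumours 1 and 3 lay below the adult range and tumour 6 inside it.

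Krt7 and Krt19 did not pass in tumours. Krt7 was at 186.72, 481.08 and 301.07 FPKM in tumours 1, 3 and 6, in that order below, above and within the range of KO non-tumour lung (248.41 to 331.38), and differed by 0.29 ± 0.28 on the log2 scale (adjusted p = 0.541). Krt19 was at 91.92, 173.09 and 137.83 FPKM against 160.20 to 183.30, and differed by -0.28 ± 0.19 (adjusted p = 0.362). Krt80 was at 22.38, 44.95 and 74.58 FPKM in tumours against 62.02 to 107.20, a difference of -0.88 ± 0.33 (adjusted p = 0.108) against KO non-tumour lung and -1.0 ± 0.38 (adjusted p = 0.118) against WT lung. Tumours 1 and 3 were below all adult libraries for Krt80, and tumour 6 was within their range. When tumour 6 was left out Krt8 and Krt80 were called as well.

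Krt83 and Krt85, both type II keratins of the hair shaft, were low in all groups and highest in tumours. Krt83 was at 0.99, 1.87 and 0.76 FPKM in tumours (31 to 83 counts), at 0.30, 0.26, 0.39, 0.47 and 0.26 in KO non-tumour lung and at 0.39, 0.35 and 0.26 in WT lung. Krt85 was at 0.53, 0.72 and 0.40 FPKM in tumours (18 to 36 counts), at 0.15, 0.15, 0.19, 0.22 and 0.20 in KO non-tumour lung and at 0.14, 0.17 and 0.09 in WT lung. All tumours were higher than all other libraries for both genes.

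Against KO non-tumour lung Krt83 was higher by 1.93 ± 0.38 (adjusted p = 0.012) and Krt85 by 1.68 ± 0.32 (adjusted p = 0.0109) on the log2 scale. Against WT lung Krt83 was higher by 1.92 ± 0.45 (adjusted p = 0.0351) and Krt85 by 2.06 ± 0.41 (adjusted p = 0.0235). Krt84, another type II hair keratin, which was too low for the test, had 2, 10 and 4 counts in the tumours and 0 in the other 20 libraries, at least 9.34-fold higher than KO non-tumour lung over pooled reads, taking 3 counts in the whole group as the floor. Krt84 was singled out after its counts were seen. Hair follicle markers outside the keratins summed to no more than 0.01 FPKM in the tumours. The type I hair keratins summed to 0 to 0.08 FPKM in tumours, against 0 to 0.20 in adult lung.

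**Figure D5:**
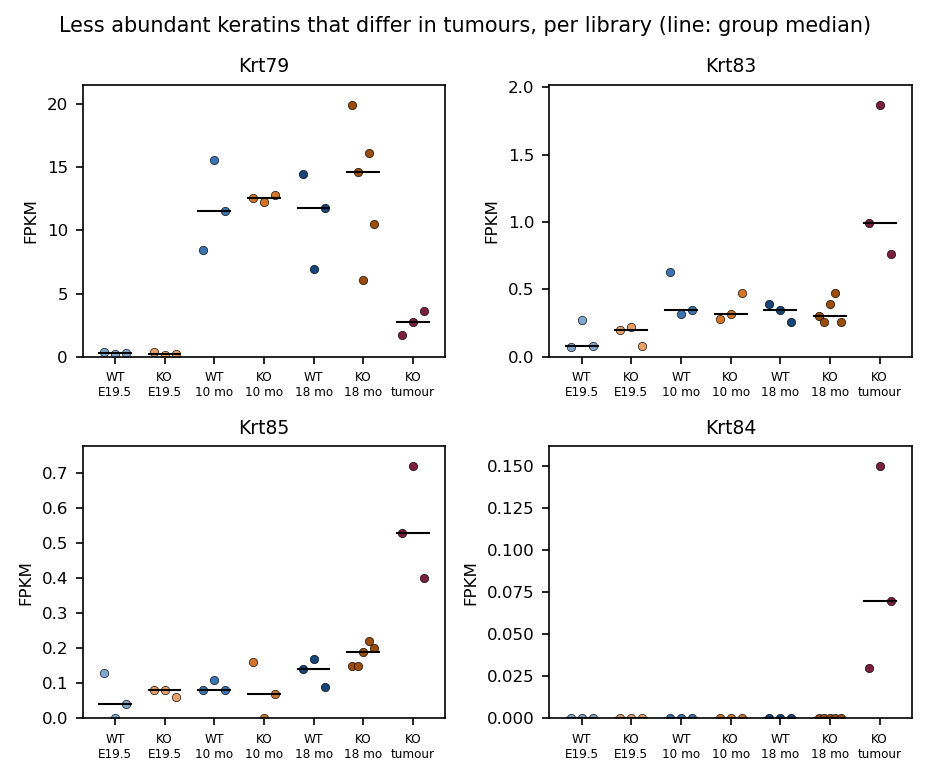
FPKM (vertical axis, linear, from 0) of Krt79, Krt83, Krt85 and Krt84 in each library (points), by group, with the group median as a line. The tumours are at 1.74 to 3.62 FPKM for Krt79, below all adult lung libraries, and above all other libraries for Krt83, Krt85 and Krt84.

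Of the keratins of basal and stratified cells, Krt4, Krt5, Krt13, Krt14, Krt15 and Krt17 were nearly absent from the tumours, while Krt10 was present. Krt5 and Krt17 had no count in any of the 3 tumours, Krt15 had 1 count in all, Krt4 had 4, Krt13 had 5 and Krt14 had 7. Krt10 was at 0.81, 1.22 and 0.67 FPKM and differed by -0.59 ± 0.31 on the log2 scale (adjusted p = 0.239). The 6 genes Krt4, Krt5, Krt13, Krt14, Krt15 and Krt17 made up at most 0.0304% of the keratin FPKM in any tumour. Their share was 0.0269% to 0.491% in the 14 adult non-tumour libraries.

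Against WT lung 3 keratins were higher and 1 was lower in the tumours (Krt23, Krt83, Krt85 and Krt79), where 15.4% of all genes were called (7.87% higher, 7.50% lower). In this comparison 6 members did not overlap, the 4 called with Krt18 and Krt80, against 42.7% of genes. The median log2 fold change was 0.40 for the 12 members tested and 0.02 for all genes. Leaving out any 1 of the 3 WT libraries gave 0 calls among keratins. Calls over all genes dropped as well, from 2358 to 504, 11 and 3 without WT library 1, 2 and 3. This comparison and the one against KO non-tumour lung share the 3 tumours.

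Partner genes were called in the tumours as follows, where 13.8% of all genes were called. Against KO non-tumour lung 1 of 6 desmosomal genes was higher, the cadherin Dsc2 (1.83 ± 0.37 on the log2 scale, adjusted p = 0.0139). Of 9 other intermediate filament genes 1 was lower, the muscle filament desmin, Des (-1.33 ± 0.31, adjusted p = 0.0243). No regulator of stratified epithelium was called among 9. Of 6 cornified envelope genes 3 were higher: the precursor Sprr1a by 3.12 ± 0.38 (adjusted p = 0.00232), involucrin (Ivl) by 2.89 ± 0.53 (adjusted p = 0.00944) and Tgm1 by 1.09 ± 0.26 (adjusted p = 0.0258). Only these 3 of the 6 had a positive log2 fold change. The 14 listed genes present in the data summed to 53.05 to 90.83 FPKM in tumours against 69.8 to 112.7 in KO non-tumour lung.

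Cell type markers differed between the tumours and KO non-tumour lung as well, where 13.8% of all genes were called (7.20% higher, 6.61% lower). Of 10 general epithelial markers 7 were higher and none lower, with a median log2 fold change of 0.99 and a summed 493.3 to 835.9 FPKM against 365.6 to 447.2. Of 8 alveolar type 2 markers 7 were higher, with 49570 to 97060 FPKM against 21740 to 38230. Lower were 8 of 8 ciliated cell markers (232 to 261.3 FPKM against 550 to 791.9), 3 of 6 club cell markers (30760 to 47000 against 100900 to 169300), 4 of 6 mesothelial markers (20.4 to 60.1 against 73.8 to 177.5) and 1 of 8 alveolar type 1 markers (1814 to 2794 against 3113 to 4140). Of 5 neuroendocrine markers tested 3 were lower, and all 3 liver markers tested were higher. Of 5 basal cell markers tested 1 was called, as lower, while 3 had a positive log2 fold change, with a list median of 0.21. The basal list summed to 324.1 to 518.3 FPKM in tumours against 333.1 to 354.5. Of 4 oesophageal markers tested 1 was higher and 1 lower. Only the higher one had a positive log2 fold change, and the list median was -1.43. The whole list, with the markers not tested, summed to 27.3 to 64.5 FPKM against 12.4 to 15.3. The part of these cell types in the keratin differences was not tested.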

How the data were processed

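The data are 23 RNA-seq libraries of whole mouse lung. The submitters' processing notes list RSEM 1.3.0, STAR 2.5.2b, Trimmomatic 0.36 and mm10, with no roles or settings. The authors deposited expected counts per gene, which hold decimals in all 23 libraries, and FPKM rounded to 2 decimals. The labels' protocols give no strand, batch or time of day, and whole-genome profiles were not analysed here.

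Expected counts were rounded and fitted over all genes with edgeR 4.0.16 (R 4.3.3): TMM scaling, filterByExpr, robust glmQLFit and the quasi-likelihood F test, with Benjamini-Hochberg p-values adjusted over all genes tested and a threshold of 0.05. Only the groups compared entered each fit. DESeq2 1.42.0, limma 3.58.1 on log2(FPKM + 0.1) and log2(FPKM + 1), other scaling, no filter and left-out libraries were alternatives. A member is named if its mean reached 1 FPKM in some group or if it was called, and up to 4 genes of a list by smallest adjusted p; Krt1, Krt6a, Krt20, Krt31, Krt75, Krt78 and Krt84 were named after their values were seen. Members and lists were chosen with earlier results of these data known.

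The labels do not say that libraries of a group come from separate litters or days, so each p-value reflects only how far these libraries vary, which may be technical. Within groups 28 pairs of libraries were compared, with a chi-square of 6.72 to 228 per degree of freedom, so none was a copy. Tumour and non-tumour lung share the code numbers 1, 3 and 6 in the labels, which is where that pairing comes from. The labels do not say outright that these are the same animals. Deviations of the paired libraries correlated at 0.376, 0.0978 and 0.0995. Other groups share only a replicate number. On simulated counts edgeR recovered 49% of 100 genes changed 2-fold and 86% of 100 changed 4-fold for tumours against KO non-tumour lung (15448 genes), and 77% and 93% for KO against WT at 10 months (15333 genes). Reads can be split between near-identical keratin genes, so low values of single hair keratins are uncertain. Promoters are RefSeq sequence, matched by symbol for 34 of 48 keratins. One result is not reported here.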

Additional observations from a re-analysis of the deposited data

Results flagged for a closer look

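In each group of 4 or more libraries (here only the 5 of KO non-tumour lung at 18 months), a library was looked at again when its gap to the nearest other exceeded Dixon's 95% critical value, which chance alone does in a small share of groups. Of 15 keratins tested this way 4 had such a library, all at very low levels. Krt13 was at 0.28 FPKM in library 1, with the next at 0.13, and Krt4 at 0.07 FPKM in the same library, with the next at 0.04. Krt15 was listed at 0.0 FPKM in library 6, with the next at 0.08, while Krt5 was at 0.02 FPKM in library 6 and at 0 in the other 4.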

How the results depend on the processing

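No keratin called in a comparison reversed its direction under any alternative run. Among keratins not called, leaving out WT E19.5 3 reversed Krt4 (-6.93 to 0.20), Krt15 (-1.19 to 0.31), Krt14 (-1.61 to 0.19), Krt17 (-2.17 to 0.14), Krt7 (-0.02 to 0.08) and Krt10 (0.08 to -0.02) in KO against WT lung at E19.5, and Krt13 (-7.36 to 0.18) in WT maturation, as log2 fold changes. Keratins not called were not followed under the other alternatives. Of 30 calls of single keratins, 13 stayed past the threshold under every alternative run. Across 142 recounts of keratins called, 129 stayed within 1.5 times the main count. DESeq2 called 1 keratin in place of 0 in KO against WT lung at 10 months (Krt7) and in WT lung at 18 against 10 months (Krt15), 15 in place of 9 in WT maturation and 7 in place of 4 in tumours against WT lung. One fit of all 23 libraries called 8 keratins in place of 5 in tumours against KO non-tumour lung (adding Krt8, Krt10 and Krt80) and 7 in place of 4 against WT lung. The replicate block called 0 and 2 keratins in these tumour comparisons and changed no other count of keratin calls by over 1.5 times. Limiting the fit to the libraries numbered 1, 3 and 6 without the block, chosen after seeing the data, called 1. For the tumours against KO non-tumour lung a shared code was read as the same animal, and elsewhere the libraries share only a replicate number. Under the block Krt10 and Krt83 lost their calls in KO maturation and Krt83 and Krt85 in tumours against WT lung. Leaving out each library in turn gave 4 to 7 calls in tumours against KO non-tumour lung, 0 to 6 against WT lung, 7 to 10 in WT maturation, 9 to 11 in KO maturation and 0 to 1 in WT lung at 18 against 10 months, where Krt15 was called without WT 10 months 2. In WT maturation the fit of all libraries lost Krt7 and Krt8 and the count was 12, and it was 10 without replicate 3 of WT at both ages, also chosen after seeing the data. The cause of these differences was not tested. Depth limits the hair keratins and Krt84, which rest on few counts.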
